A study of Homo sapiens with 6 samples.

Results

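In DU145 cells given OTI-611, 10 genes around poly(ADP-ribose) were followed: the transferases PARP1, PARP2, PARP3, PARP4, TNKS and TNKS2, the glycohydrolase PARG, the PARP1 cofactor HPF1, and the repair proteins APLF and APTX. They were chosen by symbol, with earlier results of these data known, and all 10 were found once each among the 32692 human genes of the deposited table. DU145 is an established human cell line from a prostate carcinoma. Total RNA was taken from 3 samples given the solvent DMSO and from 3 given 5 µM OTI-611, a compound named here only by its code, and every sample was collected after 24 h. The sources used here do not say whether the samples of a group were separate cultures, so the p-values below measure only how far these samples vary, and that variation may be technical. The series is about CHD1L, a chromatin remodeller that binds poly(ADP-ribose) and is switched on by it. The 10 genes encode transferases, a cofactor of PARP1, an enzyme that removes that polymer, and repair proteins.

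Poly(ADP-ribose) is a chain built from NAD. PARP1 and PARP2 bind broken DNA and build the chain on themselves, on histones and on other proteins, HPF1 joins their active site and directs the modification to serine, and PARG cuts the chain down again. Repair proteins that recognise the chain, among them APLF and the remodeller CHD1L, are then gathered at the break. Tankyrases, encoded by TNKS and TNKS2, mark other targets, such as the Wnt regulator axin and the telomere protein TRF1, and PARP4 is a component of vaults, large ribonucleoprotein particles of the cytoplasm.

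The table gives 1 value per gene and library. In 5 of the 6 libraries it behaves as RPKM, reads scaled by gene length and by library depth. DMSO 1 holds whole numbers only. Set against the average of the other DMSO libraries, its mean difference was -0.533 to -0.509 in the bands of genes between 1 and 50 RPKM, where dropping the decimals lowers a value by about 0.5, and -0.918 ± 0.098 (SE) in genes between 50 and 200 RPKM. A DMSO 1 value is therefore read as a lower end that could stand for up to 1 more, and each tested gene of the 10 is also given without that library. Estimated depths were 30.7 and 32.3 M reads for DMSO 2 and DMSO 3, lay between 37.2 and 37.7 M reads for OTI-611, and could not be estimated for DMSO 1. All 6 epithelial markers examined were at 1 RPKM or more in every library, and no value of the 6 markers of blood, vascular and stromal cells found in the table exceeded 0.735 RPKM. The epithelial markers summed to 921 to 970 RPKM with DMSO and 821 to 852 RPKM with OTI-611, but did not move alike. From DMSO to OTI-611, mean CDH1 went from 4.4 to 1.54 RPKM, KRT8 from 149 to 105 and KRT7 from 428 to 343. KRT19 went from 247 to 271, and KRT18 (99.3 and 99.1) and EPCAM (13.9 and 13.8) stayed level. The part of these markers in the results was not tested. Of the prostate luminal markers, KLK3 did not exceed 0.0595 RPKM and TMPRSS2 did not exceed 0.0131 RPKM.

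With OTI-611, transcripts of PARP1, PARP3 and PARP4 fell and those of PARP2, TNKS2 and PARG rose. PARP4 and PARP1 had the largest differences, -0.67 and -0.50 on the scale of log2(RPKM + 1), the scale of every log2 difference below unless stated. It understates changes of low genes. With 0.1 added in place of 1, PARP2 was at 0.62, beside -0.51 for PARP1 and -0.70 for PARP4. That value takes PARP2 in DMSO 1 as listed, at 1 RPKM, where dropped decimals weigh most. With DMSO 1 raised by 0.5, a setting chosen after seeing the data, PARP2 went from 0.40 to 0.29 in log2(RPKM + 1). Against DMSO 2 and DMSO 3 alone it was 1.44-fold higher. The rises of TNKS2 and PARG were both 0.19. Of the 9 genes with a mean of at least 1 RPKM, the minimum for testing, 3 were higher and 3 lower at a limma adjusted p under 0.05. Among all 11978 genes tested, 27.8% were higher and 37.3% were lower at that threshold, so the count of members called was near the share of genes called in general. That split depended on the scaling: 4085 genes were higher and 4115 lower after quantile normalization, and 3986 and 3978 after scaling to the median log ratio. The median log2 difference was 0.09 over the 9 genes and -0.05 over all genes tested. The 3 OTI-611 libraries lay wholly on 1 side of the 3 DMSO libraries in 8 of the 9 genes, against 70.2% of all genes tested. In bulk RNA, fewer cells that express a gene and less RNA per cell cannot be told apart.

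**Figure D1:**
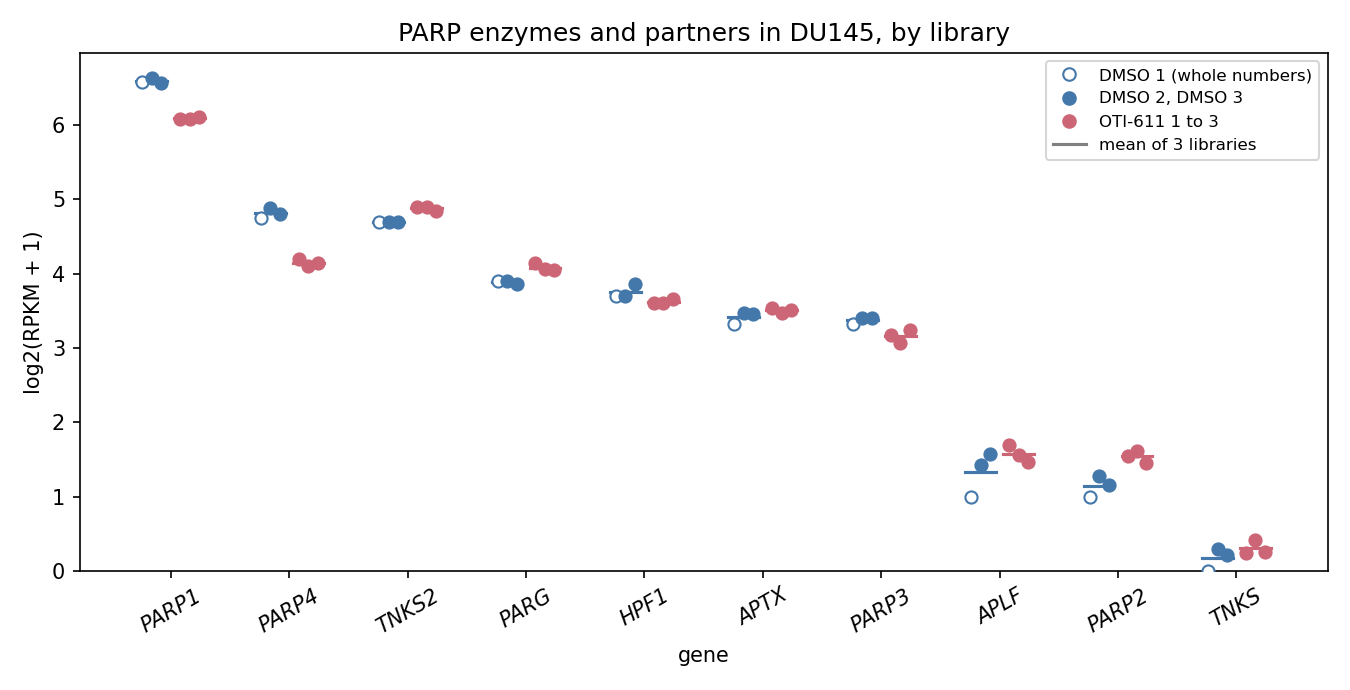
Level of each of the 10 genes in each library, as log2(RPKM + 1) on the vertical axis, with genes ordered by their DMSO mean on the horizontal axis. Points are libraries (open blue, DMSO 1; filled blue, DMSO 2 and DMSO 3; red, OTI-611), and bars are the mean of 3 libraries. PARP1 stands above the other genes in every library, PARP4 lies above TNKS2 with DMSO and below it with OTI-611, and TNKS is near 0.

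Per length, PARP1 was the most abundant of the 10 genes and TNKS the least. In DMSO 2 and DMSO 3, the libraries with decimals, the order of mean levels was PARP1 (96.1 RPKM), PARP4 (27.7), TNKS2 (24.9), PARG (13.7), HPF1 (12.7), APTX (10.1), PARP3 (9.57), APLF (1.84), PARP2 (1.33) and TNKS (0.199). None of the ranges of neighbours in that order overlapped between these libraries, of which there are only 2. With OTI-611, PARP4 passed from the second place to the third, below TNKS2. The ranges of PARP4 (16.2 to 17.3 RPKM) and PARG (15.5 to 16.6) then overlapped, as did those of APLF (1.77 to 2.23) and PARP2 (1.75 to 2.07), so these neighbours did not differ beyond their spread.

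PARP1 encodes the main poly(ADP-ribose) polymerase of the nucleus. Its values (ENSG00000143799) were 95, 98.5 and 93.8 RPKM in DMSO 1 to 3 and 66.8, 66.9 and 68.2 RPKM in OTI-611 1 to 3. All OTI-611 libraries lay below all DMSO libraries, and the gap between the groups was wide beside the spread within them. The mean fell from 95.8 ± 2.4 to 67.3 ± 0.8 RPKM (SD over 3 libraries each), a log2 difference of -0.50 ± 0.027 (SE; limma adjusted p = 4.51e-07). Without DMSO 1 the difference was -0.51 with a limma adjusted p of 1.77e-05. The estimated reads behind these values number 17849 to 21747 per library, so counting error is small here. PARP1 lies on chromosome 1 from 226360691 to 226408079 (GRCh38, GENCODE v29), and no exon of another gene overlaps its exons. A processed copy, PARP1P1, did not exceed 0.0102 RPKM.

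PARP2 encodes the smaller DNA-dependent paralog, which shares targets with PARP1. Its levels (ENSG00000129484) were far lower: 1, 1.43 and 1.23 RPKM with DMSO and 1.92, 2.07 and 1.75 RPKM with OTI-611. Each OTI-611 value lay above each DMSO value as listed, but DMSO 1, listed at 1, could stand for up to 2 RPKM, and the groups would then overlap. The mean rose from 1.22 ± 0.22 to 1.91 ± 0.16 RPKM (SD over 3 libraries each), a log2 difference of 0.40 ± 0.12 (SE; limma adjusted p = 0.0162). Against DMSO 2 and DMSO 3 alone it was 1.44-fold higher, with a log2 difference of 0.32 and a limma adjusted p of 0.0142. The call for PARP2 was lost with all libraries rounded down (log2 difference 0.19, limma adjusted p = 0.407), with no minimum level (adjusted p = 0.111), without OTI-611 1 (adjusted p = 0.0544) and without OTI-611 2 (adjusted p = 0.0756). Between 163 and 315 estimated reads stand behind each value. PARP2 lies on chromosome 14 from 20343582 to 20357905, and 3.17% of its exon bases are shared with antisense genes.

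The promoter windows of these paralogs are shown because their transcripts moved in opposite directions. They come from RefSeq on GRCh38.p14 and run from 250 bases before the annotated start to 50 after it, at chr1:226408044-226408343 on the minus strand for PARP1 and chr14:20343385-20343684 on the plus strand for PARP2. Windows of 8 of the 10 genes were read, PARP4 and TNKS not among them. Capitals mark matches, on either strand, to any of the motifs searched: the forkhead motif bound by FOXO factors (GTAAACA), the C/EBP-ATF motif (TGATGCAA), the cyclic AMP response motif of CREB and ATF factors (TGACGTCA), E2F motifs (TTTCCCGC and TTTGGCGC), the GC box of SP1 (GGGCGG) and the ETS motif (CCGGAAG).
PARP1: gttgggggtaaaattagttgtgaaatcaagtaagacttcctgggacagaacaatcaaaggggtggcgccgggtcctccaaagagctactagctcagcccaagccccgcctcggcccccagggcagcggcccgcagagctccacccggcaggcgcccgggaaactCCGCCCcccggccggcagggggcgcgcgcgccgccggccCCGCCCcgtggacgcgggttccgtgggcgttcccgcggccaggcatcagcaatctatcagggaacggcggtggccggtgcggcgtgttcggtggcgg
PARP2: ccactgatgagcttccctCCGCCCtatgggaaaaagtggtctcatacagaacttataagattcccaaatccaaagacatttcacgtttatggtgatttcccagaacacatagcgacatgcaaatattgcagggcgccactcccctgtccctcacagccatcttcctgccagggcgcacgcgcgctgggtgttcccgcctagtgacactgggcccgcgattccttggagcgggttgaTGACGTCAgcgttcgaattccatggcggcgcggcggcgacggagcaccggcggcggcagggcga

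The PARP1 window held the GC box motif at 2 positions, both on the other strand, at -86 and -47 counted from the start, and none of the other motifs. Of all 35116 promoter windows of this length, 45% held a GC box. In PARP2 the cyclic AMP response motif began at -14, a motif present in 1.85% of all windows, and a GC box lay at -232. The cyclic AMP response motif was not particular to PARP2. An APTX window held it at -45 and -14, and APTX did not pass (log2 difference 0.09, limma adjusted p = 0.164). The first 23 bases of the PARP2 window belong to RPPH1, the RNA of ribonuclease P, which is transcribed from the opposite strand. GC content was 70% for PARP1 and 58.3% for PARP2, against a median of 58.7% over all windows. A match is a description of letters and not a measured binding site.

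PARP3, which acts at double-strand breaks, fell less than PARP1. It was listed at 9, 9.59 and 9.54 RPKM in DMSO 1 to 3 (ENSG00000041880) and at 8, 7.41 and 8.45 RPKM with OTI-611. The groups did not overlap, although OTI-611 3 came within 1 RPKM of DMSO 1. The fall was from 9.38 ± 0.33 to 7.95 ± 0.52 RPKM (SD over 3 libraries each), a log2 difference of -0.21 ± 0.056 (SE; limma adjusted p = 0.00762). Without DMSO 1 it was -0.24 with a limma adjusted p of 0.00817. The gene lies on chromosome 3 from 51942345 to 51948867 and shares no exon bases with another gene. In DMSO 2 and DMSO 3, PARP1 supplied 89.9% and 89.7% of the summed RPKM of PARP1, PARP2 and PARP3. Its share was 87% to 87.6% in the OTI-611 libraries. DMSO 1 gave 90.5%, but dropping decimals would take relatively more from the lower genes. The sum went from between 105 and 109 RPKM with DMSO to between 76.3 and 78.4 RPKM with OTI-611.

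HPF1, the cofactor that completes the active site of PARP1 and PARP2, stood at the edge of the threshold. Its values (ENSG00000056050) were 12, 12 and 13.5 RPKM with DMSO and 11.2, 11.2 and 11.6 RPKM with OTI-611. The groups did not overlap, and DMSO 3 was the highest library, although DMSO 1, listed at 12, could stand for up to 13. The means were 12.5 ± 0.86 and 11.3 ± 0.2 RPKM (SD over 3 libraries each), with a log2 difference of -0.13 and a limma adjusted p of 0.0537. Without DMSO 1 the difference was -0.15 and passed, with a limma adjusted p of 0.04. Counted without DMSO 1, 3 of the genes were higher and 4 lower, against 26.3% and 41.9% of all genes tested. HPF1 lies on chromosome 4 from 169729465 to 169757953.

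**Figure D2:**
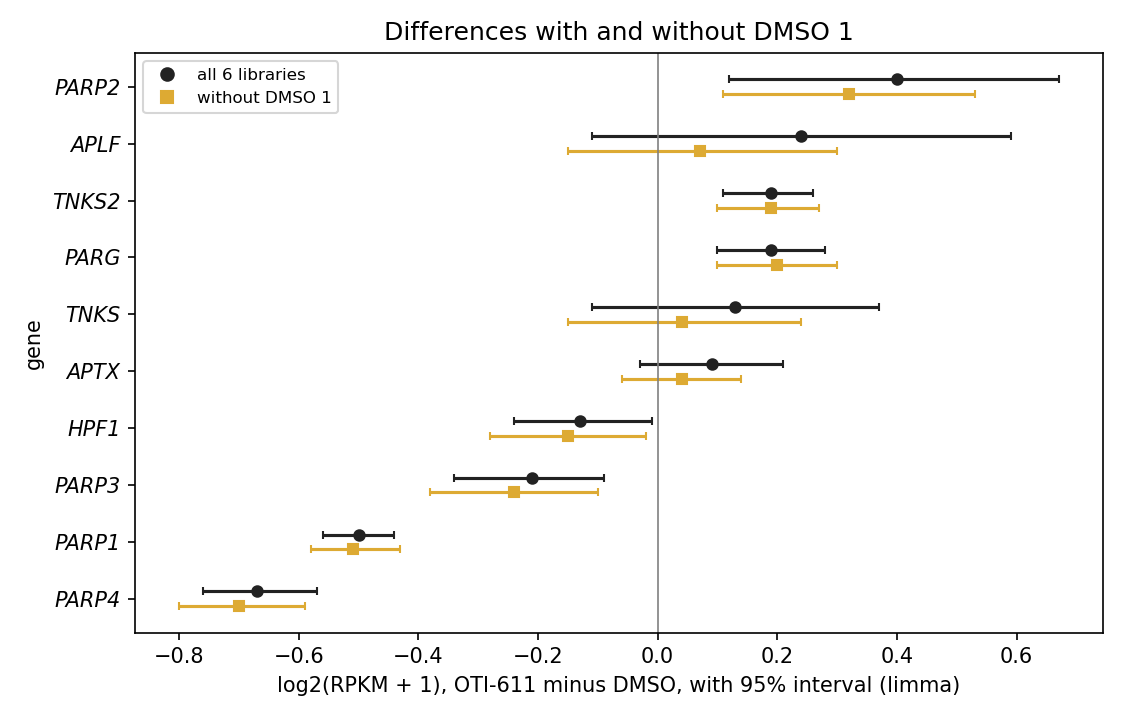
Difference between OTI-611 and DMSO for each of the 10 genes in log2(RPKM + 1), with its 95% interval from limma, fitted with all 6 libraries (black circles) and without DMSO 1 (yellow squares). The intervals of PARP4, PARP1, PARP3 and HPF1 lie below 0 in both fits and those of TNKS2, PARG and PARP2 above 0. Intervals are not adjusted for the number of genes, and HPF1 did not pass with all 6 libraries (limma adjusted p = 0.0537). The estimate for APLF goes from 0.24 to 0.07 without DMSO 1.

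PARG encodes the main enzyme that degrades the polymer, and its transcript rose. It was listed at 14, 13.9 and 13.5 RPKM in the DMSO libraries (ENSG00000227345) and at 16.6, 15.7 and 15.5 RPKM in the OTI-611 libraries. All OTI-611 values lay above all DMSO values, also if DMSO 1 is taken at its upper end of 15. The mean went from 13.8 ± 0.27 to 15.9 ± 0.61 RPKM (SD over 3 libraries each), a log2 difference of 0.19 ± 0.04 (SE; limma adjusted p = 0.00238), and of 0.20 without DMSO 1 (adjusted p = 0.00555). PARG lies on chromosome 10 from 49818279 to 49970203. It has a closely related copy, PARGP1, listed at 0, 0.142 and 0.0674 RPKM with DMSO and 0.305, 0.421 and 0.336 RPKM with OTI-611. How reads common to both were assigned is not given in the sources used here, so the value of PARG is uncertain to that extent. The neighbour TIMM23B overlaps 37 exon bases of PARG on the opposite strand, 0.721% of the exon bases of PARG. It also stood higher with OTI-611, at 5.92, 6.54 and 6.17 RPKM against 3, 4.17 and 3.95 RPKM with DMSO. Whether its reads entered the PARG value was not tested.

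Set against PARP1 within each library, PARG and HPF1 were both relatively more abundant with OTI-611. PARG per PARP1, a ratio of RPKM, was 0.147, 0.142 and 0.144 in DMSO 1 to 3 and 0.249, 0.235 and 0.227 in OTI-611 1 to 3, so that the OTI-611 mean was 1.66-fold that of DMSO 2 and DMSO 3. The HPF1 per PARP1 ratio was 0.126, 0.122 and 0.144 with DMSO and 0.168, 0.168 and 0.17 with OTI-611. The groups did not overlap in either ratio, and the two-sided exact permutation p was 0.10 for each, the smallest that 3 against 3 libraries allow. PARG rose and PARP1 fell without overlap, so their ratio had to separate and its p adds no support. HPF1 itself was not higher with OTI-611 (log2 difference -0.13), so its ratio restates the larger fall of PARP1 (-0.50). These are ratios of transcripts, and neither enzyme activity nor the polymer itself was measured.

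The tankyrases differed widely in level. TNKS2 stood at 25, 24.9 and 24.8 RPKM with DMSO (ENSG00000107854) and at 28.9, 28.9 and 27.6 RPKM with OTI-611. The groups were clear of each other, also with DMSO 1 at its upper end of 26. From 24.9 ± 0.13 the mean rose to 28.5 ± 0.77 RPKM (SD over 3 libraries each), a log2 difference of 0.19 ± 0.032 (SE; limma adjusted p = 0.00064), the same without DMSO 1 (0.19, adjusted p = 0.00271). TNKS2 lies on chromosome 10 from 91798312 to 91865276 and shares no exon bases. Its divergent neighbour TNKS2-DT did not exceed 0.673 RPKM.

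TNKS, the paralog (ENSG00000173273), was under the minimum for testing. It was listed at 0, 0.234 and 0.163 RPKM with DMSO and 0.181, 0.339 and 0.193 RPKM with OTI-611, and the groups overlapped. In the fit with no minimum its log2 difference was 0.13 with a 95% interval of -0.11 to 0.37 (limma adjusted p = 0.519), and leaving DMSO 1 out gave 0.04 with an interval of -0.15 to 0.24. No difference was detectable at 75 to 179 estimated reads per library. An antisense gene covers 4.28% of its exon bases.

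The promoter windows of PARG and TNKS2 are shown because both transcripts rose by the same amount. They lie at chr10:49941978-49942277 on the minus strand and chr10:91798176-91798475 on the plus strand (RefSeq, GRCh38.p14), and capitals mark the same motifs as above. The PARG window surrounds the RefSeq start, whereas the outermost start in GENCODE v29, at 49970203, lies upstream of it and outside the window.
PARG: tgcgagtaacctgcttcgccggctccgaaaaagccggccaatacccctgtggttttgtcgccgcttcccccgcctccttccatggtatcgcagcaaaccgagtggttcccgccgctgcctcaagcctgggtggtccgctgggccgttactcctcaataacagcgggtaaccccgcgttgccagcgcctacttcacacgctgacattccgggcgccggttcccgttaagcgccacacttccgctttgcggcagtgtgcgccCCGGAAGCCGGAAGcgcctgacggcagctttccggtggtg
TNKS2: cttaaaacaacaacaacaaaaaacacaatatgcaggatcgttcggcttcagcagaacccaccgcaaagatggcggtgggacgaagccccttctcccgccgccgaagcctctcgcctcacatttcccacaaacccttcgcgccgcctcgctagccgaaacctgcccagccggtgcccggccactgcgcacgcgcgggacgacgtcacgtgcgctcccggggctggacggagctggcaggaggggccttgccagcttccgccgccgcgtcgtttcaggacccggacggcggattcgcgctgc

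PARG held the ETS motif at 2 adjoining positions, 11 and 18 bases after the RefSeq start, a motif found in 10.3% of all windows, and no other motif searched. The ETS motif was also in windows of PARP3, which fell, and of HPF1 and APTX, which did not pass with all libraries. TNKS2 held none of the motifs, and TNKS2-DT starts inside its window, at 91798291 on the opposite strand. Neither window, nor that of PARP1 or PARP2, held the forkhead motif, which is in 3.42% of all windows, the C/EBP-ATF motif, in 0.866%, or an E2F motif, in 1.63% and 0.652%. Absence says only that these letters are not in the window.

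PARP4 had the largest difference of the 10 genes. It was listed at 26, 28.5 and 27 RPKM in DMSO 1 to 3 (ENSG00000102699) and at 17.3, 16.2 and 16.6 RPKM in OTI-611 1 to 3. All OTI-611 libraries lay well under all DMSO libraries. The mean fell from 27.2 ± 1.3 to 16.7 ± 0.55 RPKM (SD over 3 libraries each), a log2 difference of -0.67 ± 0.042 (SE; limma adjusted p = 1.17e-06), and of -0.70 without DMSO 1 (adjusted p = 1.69e-05). In size this change exceeded that of 87% of the genes tested, against 77% for PARP1. PARP4 lies on chromosome 13 from 24420926 to 24512810, its exons are shared with no other gene, and the copy PARP4P2 did not exceed 0.0371 RPKM. Of its vault partners, MVP, the major vault protein, fell from 34.2 ± 1.4 to 23 ± 0.56 RPKM (SD over 3 libraries each; log2 difference -0.55, limma adjusted p = 1.7e-06). TEP1, the other vault protein listed, was under the minimum, at 0, 0.266 and 0.36 RPKM with DMSO and 0.487, 0.469 and 0.55 RPKM with OTI-611.

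APLF and APTX, repair proteins that work with the end-joining and single-strand break machinery, did not pass. APLF, which binds poly(ADP-ribose) through zinc fingers and acts as a histone chaperone, was listed at 1, 1.69 and 1.98 RPKM with DMSO (ENSG00000169621) and 2.23, 1.95 and 1.77 RPKM with OTI-611. The groups overlapped, and the log2 difference of 0.24 (95% interval -0.11 to 0.59, limma adjusted p = 0.205) was 0.07 without DMSO 1 (-0.15 to 0.30, adjusted p = 0.526). In GENCODE v29, 22.8% of its exon bases on chromosome 2 (68467561 to 68655862) are shared with PROKR1, which did not exceed 0.0144 RPKM. APTX encodes aprataxin, which removes AMP left on DNA ends by failed ligation. It was listed at 9, 10.1 and 10 RPKM with DMSO (ENSG00000137074) and 10.6, 10.1 and 10.4 RPKM with OTI-611. The lowest OTI-611 value was just above the highest DMSO value. Its log2 difference was 0.09 (95% interval -0.03 to 0.21, limma adjusted p = 0.164) and 0.04 without DMSO 1 (-0.06 to 0.14, adjusted p = 0.417). APTX lies on chromosome 9 from 32972606 to 33025168, and 6.02% of its exon bases are shared with pseudogenes.

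The genes whose profile over the 6 libraries lay nearest to that of PARP1, by Euclidean distance of log2(RPKM + 1) centred on the DMSO mean, were ERH (distance 0.0227, log2 difference -0.49), KRT8 (0.041 and -0.50) and HMGB1 (0.0416 and -0.52). For PARP2 they were RARA (0.0723 and 0.38), SOCS7 (0.0846 and 0.41) and ZNF569 (0.0946 and 0.38). The search covered 10558 genes, and the distance takes in the difference between the groups as well as the spread within them.

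Changes in the remaining PARP family genes went in both directions. Of 10 found in the table and tested, 5 fell and 3 rose, with a median log2 difference of -0.22 against -0.05 over all genes tested. PARP9, an enzyme that pairs with the ubiquitin ligase DTX3L, was listed at 3, 5.2 and 4.92 RPKM with DMSO and 1.08, 0.877 and 1.01 RPKM with OTI-611, a log2 difference of -1.41 (limma adjusted p = 4.96e-05). Its partner DTX3L was at 7, 8.17 and 7.98 RPKM with DMSO and 3.32, 3.08 and 2.68 RPKM with OTI-611, a difference of -1.12 (limma adjusted p = 2.9e-06). For both genes the OTI-611 libraries lay well under the DMSO libraries, and DMSO 1 was the lowest of its group. PARP14, which carries macrodomains that bind ADP-ribose, fell from 11.6 ± 0.72 to 5.42 ± 0.64 RPKM (SD over 3 libraries each; log2 difference -0.98). The mono-ADP-ribosyl transferase PARP10 fell from 5.97 ± 0.86 to 2.17 ± 0.27 RPKM (-1.13). PARP12 (-0.36) and PARP16 (-0.50), the latter a protein of the endoplasmic reticulum membrane, also fell, PARP16 losing its call with all libraries rounded down, where the difference was -0.58 (limma adjusted p = 0.132).

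PARP6, PARP8 and TIPARP rose. PARP6, a mono-ADP-ribosyl transferase, went from 24, 24.6 and 24.3 RPKM with DMSO to 37.6, 37 and 36.9 RPKM with OTI-611, a log2 difference of 0.59 with a limma adjusted p of 2.22e-07. PARP8 rose from 3.35 ± 0.31 to 4.97 ± 0.35 RPKM (SD over 3 libraries each; 0.46). TIPARP, a target of the aryl hydrocarbon receptor, rose from 38.3 ± 0.72 to 48.9 ± 1.3 RPKM (0.34). ZC3HAV1, an antiviral member without catalytic activity, had a difference of -0.08 (limma adjusted p = 0.0532), and PARP11 one of 0.03 (adjusted p = 0.868).

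**Figure D3:**
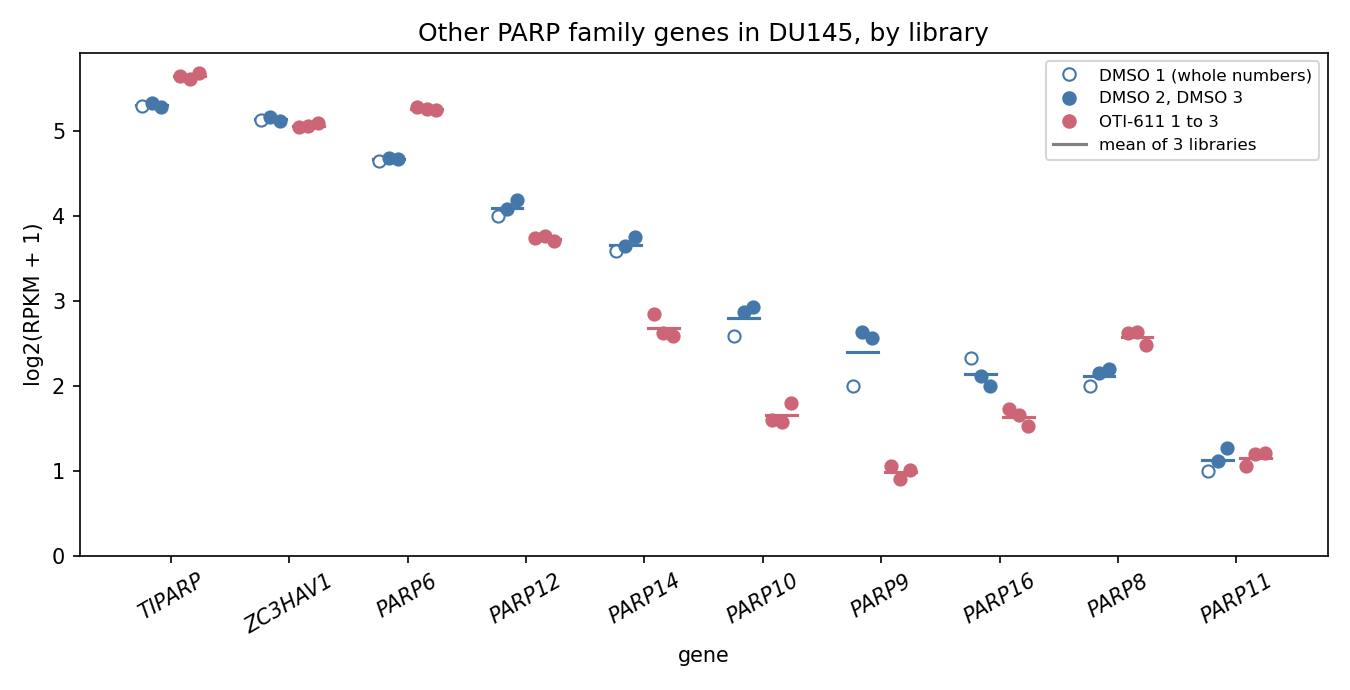
Level of the other PARP family genes in each library, as log2(RPKM + 1) on the vertical axis, with genes ordered by their DMSO mean. Points are libraries (open blue, DMSO 1; filled blue, DMSO 2 and DMSO 3; red, OTI-611) and bars are the mean of 3 libraries; PARP9, PARP10 and PARP14 stand lower with OTI-611, and PARP6, PARP8 and TIPARP higher.

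Among enzymes that remove or break down ADP-ribose, other than PARG, 7 genes were tested, of which 1 rose and 2 fell (median -0.21). OARD1, which takes the last ADP-ribose off acidic residues, rose from 7.93 ± 0.81 to 11.4 ± 0.92 RPKM (SD over 3 libraries each; log2 difference 0.48, limma adjusted p = 0.000443). The hydrolases NUDT16 (-0.53) and NUDT5 (-0.40) fell, NUDT5 from 48 ± 1.3 to 36.1 ± 1 RPKM. ADPRS, the enzyme that removes ADP-ribose from serine, had values of 19, 21.2 and 20.3 RPKM with DMSO and 20.8, 23.4 and 22.7 RPKM with OTI-611, which overlap (0.13, limma adjusted p = 0.0504). It passed as higher in 6 of the 16 other settings, among them the fits without DMSO 2 (0.17, limma adjusted p = 0.0308) and without OTI-611 1 (0.18, adjusted p = 0.0121), so that 2 genes of this list rose there.

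Of 6 tested chromatin, ubiquitin and replication factors listed around the polymer, 3 rose and 3 fell, and binding to the polymer was not measured. RNF146, the ubiquitin ligase that recognises tankyrase products, was listed at 8, 7.82 and 7.76 RPKM with DMSO and 14.9, 14.3 and 15.8 RPKM with OTI-611, a 1.93-fold rise over DMSO 2 and DMSO 3 (log2 difference 0.86, limma adjusted p = 4.91e-07). CHFR (0.35), a mitotic checkpoint ligase, and TIMELESS (0.30), a replication fork protein, rose as well. The histone variant genes MACROH2A2 (-0.76) and MACROH2A1 (-0.10) fell, besides DTX3L, but MACROH2A1 did not pass in 9 of the 16 other settings. CHD1L itself was listed at 0, 0.662 and 0.691 RPKM with DMSO and 0.585, 0.792 and 0.546 RPKM with OTI-611, under the minimum for testing, and without DMSO 1 its log2 difference was -0.03. Its transcript is not a readout of whether the protein was inhibited.

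Tankyrase partners and substrates went both ways, 4 of 12 tested genes rising and 5 falling, with a median of -0.05. AXIN1, the scaffold of the beta-catenin destruction complex, rose from 10.7 ± 0.66 to 17.4 ± 0.96 RPKM (SD over 3 libraries each; log2 difference 0.65, limma adjusted p = 6.84e-06). CASC3 (0.37) and NUMA1 (0.30), the latter a spindle pole protein, rose, and SH3BP2 (0.33) did too. AMOTL2, an angiomotin, fell from 73 ± 4.2 to 51.9 ± 2.4 RPKM (-0.48). TERF1, which encodes TRF1, fell by 0.13 on the log2 scale (limma adjusted p = 0.0482) and did not pass in 9 of the 16 other settings.

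In single-strand break and base excision repair, where PARP1 and APTX act, 19 genes were tested, of which 5 rose and 9 fell (median -0.14). FEN1, the flap nuclease, fell from 86.7 ± 2.7 to 39.5 ± 1.5 RPKM (SD over 3 libraries each; log2 difference -1.11, limma adjusted p = 2.54e-08), and the uracil glycosylase UNG from 64.1 ± 1.2 to 40 ± 0.98 RPKM (-0.67). TDP1 (-0.49), which clears stalled topoisomerase from DNA ends, also fell, whereas the polymerase POLB (0.40) rose. LIG3 (0.29) and its scaffold XRCC1 (0.16) rose, but XRCC1 did not pass in 6 of the 16 other settings, among them the fit without DMSO 1 (0.12, limma adjusted p = 0.104). Of 9 tested end-joining partners of APLF and APTX, 4 fell, XRCC6 (-0.37), XRCC5 (-0.22), LIG4 (-0.16) and PRKDC (-0.12), and DCLRE1C (0.49) and POLM (0.33) rose, with a median of -0.12. PRKDC lost its call under scaling to the median log ratio (-0.07, limma adjusted p = 0.248), and LIG4 lost it in 8 of the 16 other settings (-0.17 to -0.09). POLM lost it in 3 settings, among them the fit without OTI-611 2 (0.30, limma adjusted p = 0.0624), and without DMSO 1 its difference was 0.22.

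NAD, the substrate of PARP enzymes, is supplied by enzymes that also split: of 5 tested, NAMPT and NMNAT1 rose and NADSYN1 and NMRK1 fell. NAMPT, the rate-limiting enzyme of the salvage route, rose from 204 ± 3.8 to 284 ± 8.1 RPKM (SD over 3 libraries each; log2 difference 0.48), and NMNAT1, the nuclear NAD synthase, from 2.62 ± 0.54 to 4.27 ± 0.25 RPKM (0.55). NMRK1, a kinase that starts from nicotinamide riboside, fell by 0.92 and NADSYN1, which acts in the other routes, by 0.80 on the log2 scale. Of the 51 genes of these lists called with 6 libraries, 49 were called in the same direction without DMSO 1, the exceptions being XRCC1 and SMUG1, and 4 others passed only without it. In that fit PARP9 was at -1.61 and NMNAT1 at 0.42. In each of the lists, the counts are to be read against the 27.8% of all tested genes that were higher and the 37.3% that were lower, and every list was chosen with earlier results of these data known.

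**Figure D4:**
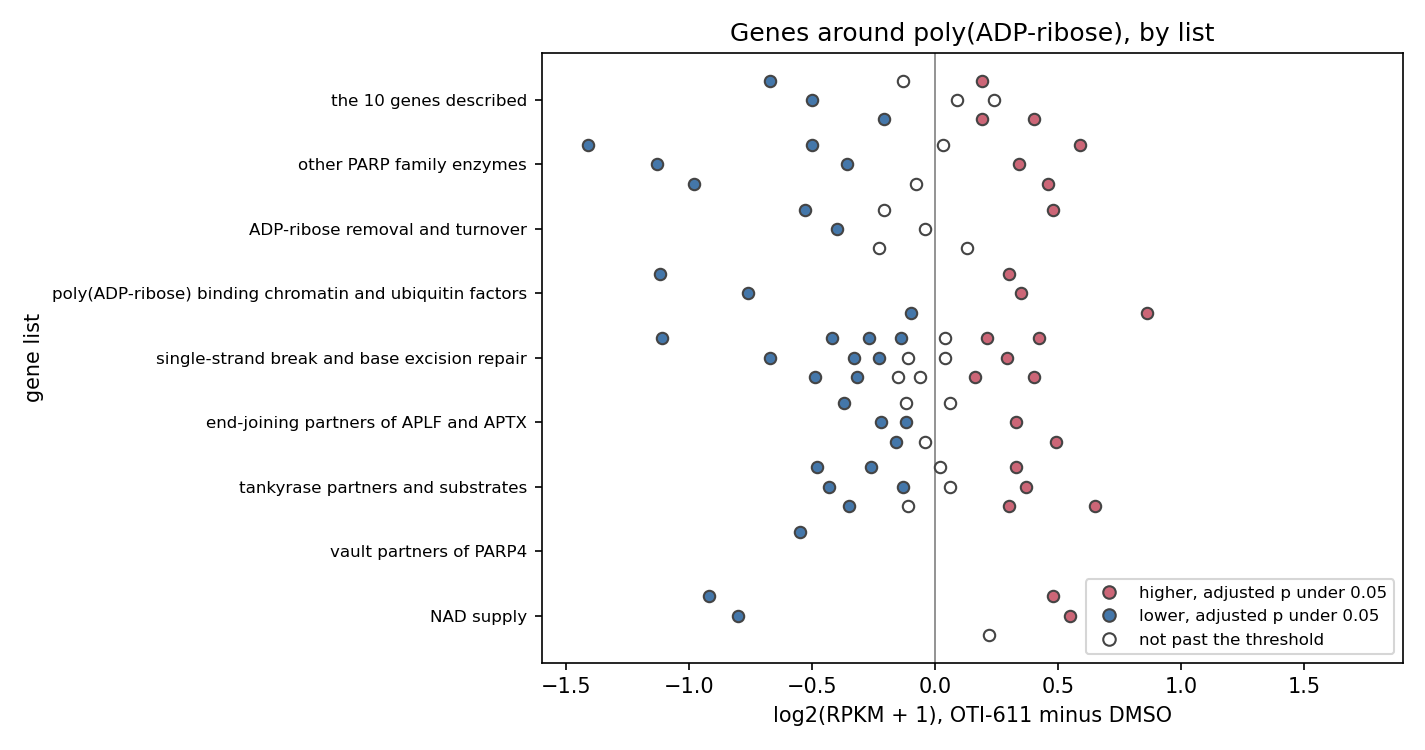
Log2 difference between OTI-611 and DMSO, in log2(RPKM + 1), of each tested gene on the horizontal axis, by gene list on the vertical axis (points are offset vertically for legibility only). Red points were higher and blue points lower at a limma adjusted p under 0.05 with all 6 libraries, open points did not pass; PARP9 (-1.41) is the lowest point and RNF146 (0.86) the highest.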

How the data were processed

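RNA of 3 DMSO and 3 OTI-611 samples was measured. A miRNeasy kit, Geo-seq amplification and a TruePrep library kit were used, per the labels' protocols. TopHat2 2.0.9, Cufflinks 2.1.1, HTSeq, FastQC and CASAVA 1.7 are listed without their roles in the submitters' processing notes, beside mm10, a mouse build, whereas all 32692 gene IDs are human, so the build and annotation used are not established. The authors deposited 5 columns read here as RPKM (FPKM would look alike), and DMSO 1, whole numbers only. The deposited DMSO 1 values are recorded as a score, since no source says how they were made, and were fitted beside the others as RPKM with decimals dropped. No column was left unused.

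Values were tested as log2(RPKM + 1) in genes with a mean of at least 1, with limma 3.58.1 in R 4.3.3 (group as the only term, mean-variance trend, two-sided, Benjamini-Hochberg over all genes tested, threshold 0.05), after the fit was tested on simulated data. The scale understates changes of low genes. No count test was run, since the values are not counts. Ratios used SciPy 1.17.1. Depths were estimated from steps of low values with GENCODE v29 exon lengths (64.2% to 65.5% of low values whole within 0.05 reads). Between libraries of a group, DMSO 1 left aside, the squared difference was 3.24 to 5.23 times its counting expectation, by the median over genes. None of these libraries was therefore a copy of another. The alternatives tried were other pseudocounts, minimum levels and scalings, rounding, no trend, a replicate block and each library left out. Named genes are the 10 members, up to 4 tested genes per list with the smallest p, the less frequent direction of a list where it has 3 genes or fewer, CHD1L, and the 3 nearest profiles of PARP1 and PARP2. PARP9, PARP11, PARP12, PARP16, ZC3HAV1, CHFR, MACROH2A1, POLB, LIG3, XRCC1, SH3BP2, TERF1, TEP1, LIG4 and SMUG1 were added after their values were seen. Some genes that the rule names are not reported here. Members and lists were chosen with earlier results of these data known.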

Additional observations from a re-analysis of the deposited data

How the results depend on the processing

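Under the 16 other settings run for each, PARP1 (-0.52 to -0.45), PARP4 (-0.70 to -0.61), PARP3 (-0.27 to -0.15), TNKS2 (0.17 to 0.24) and PARG (0.16 to 0.25) kept their direction and passed the limma threshold in all. PARP2 kept its direction in the 15 that gave a value. It did not pass with no minimum (0.40), with all libraries rounded down (0.19), or without OTI-611 1 or OTI-611 2. Left out in turn, libraries gave 0.32 to 0.46 for PARP2. A pseudocount of 0.1, with DMSO 1 as listed, gave 0.62, and DMSO 1 raised by 0.5, chosen after seeing the data, gave 0.29. HPF1 passed without DMSO 1 or DMSO 2 (range over libraries left out -0.15 to -0.07), with a minimum mean of 5 (-0.13), with all libraries rounded down (-0.15) and with DMSO 1 raised by 0.5 (-0.14), the last chosen after seeing the data. With the replicate number as a replicate block it passed too (-0.13, limma adjusted p = 0.0409), and the block changed no other member's call. Same-numbered libraries did not deviate together (r = 0.02, 0.00 and -0.06), so the numbers are not taken as pairs. Quantile normalization brought APLF (0.37) and APTX (0.13) past the threshold, so 5 of the 9 tested members were then higher. Genes called higher in general also increased there, to 4085 of the 11978 tested, from 3332 in the main fit. Scaling to the median log ratio brought APTX (0.14), so 4 members were higher, beside 3986 of all genes tested. The cause of these changes was not tested. No called gene of the lists changed direction under any setting. Estimated reads per library were 75 to 179 for TNKS, 163 to 315 for PARP2 and 371 to 593 for APLF, and values for DMSO 1 could not be given to less than 1.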
